A study of Mus musculus with 10 samples.

Results

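NRF2, the transcription factor encoded by Nfe2l2, its inhibitor gene Keap1 and 8 genes of antioxidant enzymes that are classical NRF2 targets were followed in mouse primary lymphatic endothelial cells, the cells that line lymphatic vessels. The 10 genes (Nfe2l2, Keap1, Hmox1, Nqo1, Gclc, Gclm, Txnrd1, Srxn1, Gsr and Prdx1) were chosen by name, and each had its row among the 16251 genes of the deposited table. Messenger RNA was sequenced from 10 libraries, 5 labelled control and 5 labelled Vegfr2 siRNA, taken 48 h after transfection. The siRNA cells received 50 nM of small interfering RNA duplexes against Vegfr2, the receptor for vascular endothelial growth factor that the gene Kdr encodes. The control libraries carry the genotype tag Control and share the treatment tag siRNA knockdown. The labels do not say whether the control cells received another siRNA, give no strain or age for the cells, and do not say whether replicates were separate cultures, so each p-value refers to the spread among these libraries, part of which can be technical.

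NRF2 is held at a low level by KEAP1, which brings it to a CUL3 ubiquitin ligase for degradation. Oxidants and electrophiles modify cysteines of KEAP1, NRF2 then accumulates, pairs with a small MAF protein and binds antioxidant response elements in the promoters and enhancers of its targets, where the repressor BACH1 competes for the same sites. NRF2 activity is therefore set largely at the level of the protein, which RNA counts do not show. Its targets supply glutathione and NADPH, reduce thioredoxin and peroxiredoxins, and detoxify quinones and haem. In endothelium these systems buffer the hydrogen peroxide that growth factor signalling and blood or lymph flow produce.

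After the siRNA, 7 of the 10 genes rose, 1 fell and 2 did not pass the test, against 71.3% of all 12161 genes tested that were called in either direction. Rises alone were 36.1% of all genes and falls 35.2%. Srxn1 had the largest change, 1.91-fold, followed by Txnrd1 (1.55-fold), Gclc (1.29-fold) and Gsr (1.22-fold). Rises of Prdx1, Gclm and Nfe2l2 itself were between 1.06-fold and 1.12-fold, Keap1 fell to 80.4% of its control level, and Nqo1 and Hmox1 did not pass. The 2 groups did not overlap for 7 members, 6 higher and 1 lower, against 57.0% of all genes tested (28.8% higher and 28.2% lower). The median log2 fold change was 0.13 over the 10 genes and -0.0019 over all genes tested. Levels are given as CPM, counts made comparable between libraries of different depth, and a gene is said to rise or fall where its edgeR adjusted p is under 0.05.

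**Figure D1:**
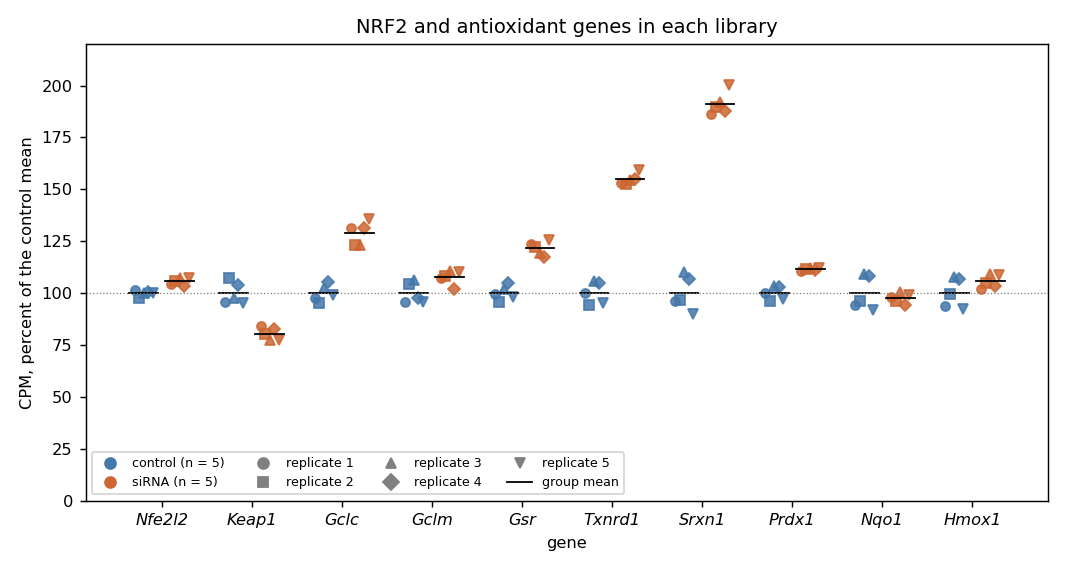
CPM of the 10 genes in each library, as a percentage of the control mean, with control libraries in blue and siRNA libraries in orange, 1 marker shape per replicate number and a black line at the group mean. Srxn1 stands at 191% and Txnrd1 at 155% of control with no overlap of the groups, whereas the groups of Nqo1, Hmox1 and Gclm overlap.

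As a check of the labels, Kdr averaged 1323 ± 66.3 CPM over the controls and 186 ± 14.8 CPM over the knockdown libraries (SD, n = 5 each), 14.0% of control. Libraries held from 17946483 to 18239260 estimated reads on genes, and a member had between 793 and 11354 reads in any library. Of 8 marker genes of lymphatic endothelium, 7 fell and Pdpn rose, against 35.2% of all genes tested that fell. Their summed level ran from 17193 to 18848 CPM in control and from 11515 to 12503 CPM in siRNA libraries. Of these 8, Pdpn (mean 11.15 CPM in control and 19.5 CPM in siRNA libraries) and Ccl21a (2.84 and 0.877 CPM) were themselves low. Of 5 markers of all endothelium, 4 fell and Cdh5 did not pass. The sum of these 5 ran from 4429 to 4618 CPM in control and from 3605 to 3768 CPM in siRNA libraries. In bulk RNA, fewer cells of a type and less RNA per cell cannot be told apart. Markers of other cells were low: the 6 fibroblast markers summed to at most 4.71 CPM and the 6 mural markers to at most 14.0 CPM in any library. The 4 epithelial markers with a row (Krt5 and Krt14 were not analysed here) went from between 1.22 and 2.46 CPM to between 7.68 and 8.72 CPM, nearly all of it Krt18, while Epcam had 3 reads in all controls together and 5 in all siRNA libraries together. The 3 macrophage markers with a row went from between 41.9 and 49.8 CPM to between 30.1 and 40.4 CPM, nearly all of it Cd68, while Csf1r had 6 and 0 reads (Ptprc, Adgre1, Lyz2 and Tyrobp were not analysed here). The part of these markers in the results was not tested.

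Control replicates 3 and 4 stood apart from the other controls in these genes. In 7 of the 10 members (Hmox1, Nqo1, Gclc, Txnrd1, Srxn1, Gsr and Prdx1) they were the highest controls, as they were for 12.3% of all genes tested, a count made after the values were seen. Their counts also differed least from each other, with a chi-square per degree of freedom of 1.498 against 1.92 to 3.47 in the 9 other pairs of controls. Without both, 8 members rose, 1 fell and Nqo1 did not pass. Leaving out the highest controls lowers a control mean, so upward shifts of those 7 members in this fit follow from the choice. In that fit, 67.89% of all 12279 genes tested were called in either direction, and 51.0% of these calls were rises. Results that rest on control replicates 3 and 4 are given below also without them.

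Short promoter sequences are shown for the members whose RefSeq promoter window (250 bases before to 50 after the annotated start, GRCm38.p6) holds an antioxidant response element core, TGACNNNGC, or an AP-1 site, TGANTCA, where N is any base. Windows matched 7 of the 10 members, 9 windows in all since Txnrd1 has several starts, and Hmox1, Gclc and Gsr were not matched. Both strands were searched. The core occurred in 5 of the 9 member windows, 1 each of Nfe2l2, Gclm, Txnrd1, Srxn1 and Prdx1, against 12.4% of all 32851 mouse windows and 14.2% of the 12500 windows of tested genes. The AP-1 site was in 2 of the 9, those of Srxn1 and Prdx1, against 7.81% of all windows and 4.94% of those of tested genes. Its N was C or G in every member match, whereas these shares also count words with A or T there. The joint word TGANTCAGC, which contains the AP-1 site and, where its N is C, also the core, was searched after the member windows had been read. It was in the windows of Srxn1 and Prdx1, and in 1.19% of all windows and 1.06% of those of tested genes. Each line below gives bases 5′ to 3′ on the stated strand, with the matched word in capitals and 10 bases on either side.
Srxn1, joint word, chr2:152105469-152105497, plus strand: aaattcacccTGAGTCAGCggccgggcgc
Srxn1, AP-1 site, chr2:152105412-152105438, plus strand: tcggagggccTGAGTCAccacgctgtg
Srxn1, core, chr2:152105542-152105570, minus strand: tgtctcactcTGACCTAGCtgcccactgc
Prdx1, joint word and core, chr4:116685456-116685484, minus strand: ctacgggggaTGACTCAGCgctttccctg
Prdx1, AP-1 site, chr4:116685352-116685378, plus strand: aacgaggaaaTGACTCAaagggcagtg
Nfe2l2, core, chr2:75704885-75704913, minus strand: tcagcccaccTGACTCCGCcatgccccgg
Gclm, core, chr3:122245413-122245441, minus strand: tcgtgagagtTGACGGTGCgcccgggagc
Txnrd1, core, chr10:82859104-82859132, minus strand: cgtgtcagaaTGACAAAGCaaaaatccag
The joint word began 45 bases upstream of the Srxn1 start, and the Prdx1 copy lay with its far end 133 bases upstream. The Srxn1 core began 28 bases downstream of the start, and the Srxn1 joint word is not a core, since its N is G. These matches are descriptions of the letters, and elements outside the windows were not searched.

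Nfe2l2, the activator, changed by a small amount. By replicate number, the controls stood at 219.6, 212, 217, 218 and 217 CPM and the siRNA libraries at 226, 230.0, 232, 224 and 233 CPM. Every siRNA library was above every control library, and the spread within a group was small, with a coefficient of variation of 1.29% in control and 1.69% in siRNA cells. The rise was 1.06-fold, a log2 fold change of 0.08 (SE 0.024, edgeR quasi-likelihood test, adjusted p = 0.00323). Nfe2l2 (Entrez gene 18024) lies on chromosome 2, 75675513 to 75704663 on the minus strand. Of all genes tested, 60.5% had a log2 fold change no higher than that of Nfe2l2.

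Keap1, the adaptor that presents NRF2 for degradation, was the only member that fell. Its levels were 56.7, 63.6, 57.8, 61.6 and 56.5 CPM in control and 49.8, 47.6, 45.9, 49.0 and 45.8 CPM in siRNA libraries. The groups did not overlap, as was so in the lower direction for 28.2% of all genes tested. The log2 fold change was -0.31 (SE 0.038, edgeR adjusted p = 9.97e-10). Exons of Keap1 (Entrez gene 50868, chromosome 9, 21229730 to 21239332) share 10.9% of their bases with an antisense gene, Gm16754, and since no strand setting is stated, reads of the 2 genes over these bases cannot be told apart. The level of Gm16754 was not analysed here. The ratio of Keap1 to Nfe2l2 reads within a library, which does not depend on library scaling, fell from 0.273 to 0.208, a log2 difference of -0.39, with no overlap (2-sided exact permutation test over the libraries, n = 5 each, p = 0.00794, the smallest that 252 assignments allow, and 0.00952 adjusted over 6 pairs).

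**Figure D2:**
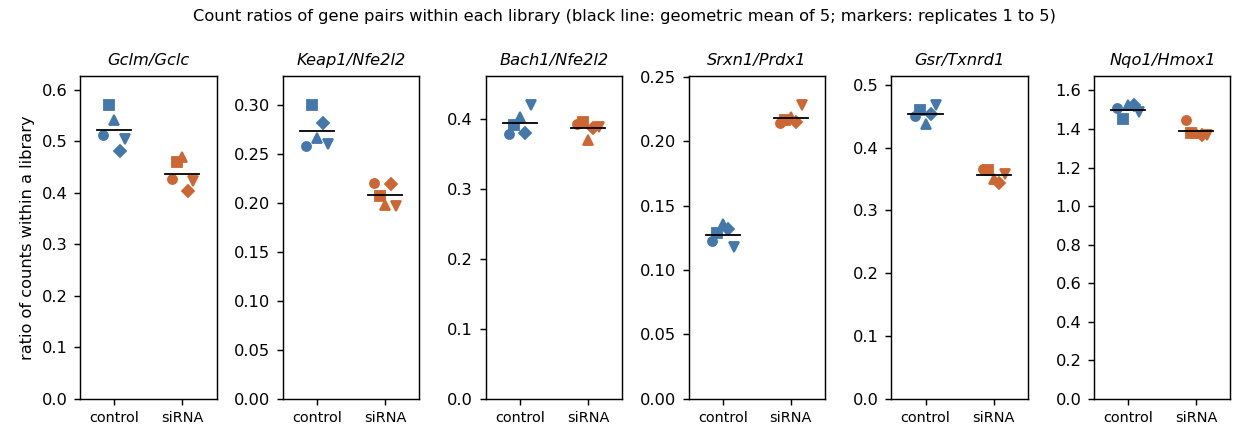
Ratio of the read counts of 2 genes within each library for 6 pairs, with axes that start at 0, 1 marker shape per replicate number and a black line at the geometric mean of 5 libraries. The ratios of Keap1 to Nfe2l2, Gclm to Gclc, Gsr to Txnrd1 and Nqo1 to Hmox1 are lower in siRNA libraries and that of Srxn1 to Prdx1 is higher, while that of Bach1 to Nfe2l2 overlaps.

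Bach1, the repressor that competes with NRF2, did not pass. Its level was 85.5 ± 3.62 CPM in controls against 88.7 ± 2.26 CPM after the siRNA (SD, n = 5), a log2 fold change of 0.05 (edgeR adjusted p = 0.134), and passed without control replicate 5 (0.08, adjusted p = 0.0256). The ratio of Bach1 to Nfe2l2 reads was 0.394 in control and 0.387 in siRNA libraries, with overlapping groups (exact permutation p = 0.46, also 0.46 adjusted over the 6 pairs). Of the 12 regulators and partners of NRF2 on the list used here, 8 rose, 2 fell and 2 did not pass, so that 83.3% were called against 71.3% of all genes tested (36.1% higher and 35.2% lower). Their median log2 fold change was 0.12. The small MAF gene Maff, whose product can pair with NRF2, rose from 95.6 ± 2.48 to 113 ± 2.78 CPM, and Cul3, the scaffold of the ligase that KEAP1 serves, from 202 ± 7.34 to 232 ± 6.22 CPM (SD, n = 5). The mitochondrial phosphatase gene Pgam5, whose product binds KEAP1, rose by 0.30 on the log2 scale.

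Glutathione synthesis begins with glutamate-cysteine ligase, an enzyme of a catalytic subunit, GCLC, and a modifier subunit, GCLM, that raises its activity. Gclc (Entrez gene 14629, chromosome 9, 77754535 to 77794489) stood at 86.7, 84.8, 91.1, 93.9 and 88.3 CPM in control and at 117, 109.4, 109.6, 117 and 121 CPM in siRNA libraries. All siRNA libraries lay above all controls, and the log2 fold change was 0.37 (SE 0.032, edgeR adjusted p = 1.09e-13). Gclm (Entrez gene 14630, chromosome 3, 122245487 to 122267215) ran from 44.5 to 49.2 CPM in control and from 47.2 to 51.4 CPM in siRNA libraries. These ranges overlapped, and the log2 fold change of 0.11 (SE 0.038, adjusted p = 0.0124 with edgeR) was small. Gclm reads per Gclc read fell from 0.521 to 0.435 with no overlap (exact permutation p = 0.00794, 0.00952 adjusted), so the transcripts of the subunits changed unequally. Of Gclm exon bases, 4.71% are shared with other annotated genes.

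Gsr encodes glutathione reductase, which returns oxidized glutathione to its reduced form with NADPH. Its control libraries ran from 109 to 119.5 CPM and its siRNA libraries from 134 to 143 CPM, with no overlap. This was a log2 fold change of 0.28 (SE 0.028, edgeR adjusted p = 7.51e-12). Gsr (Entrez gene 14782) lies on chromosome 8, 33653238 to 33698162.

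Among the other genes of glutathione synthesis and use, 11 of 27 tested rose, 11 fell and 5 did not pass (median log2 fold change 0.06), 81.5% called in all against 71.3% of all genes tested. The cystine transporter subunit gene Slc3a2 rose from 143 ± 3.75 to 211 ± 2.05 CPM. Ggct, which encodes an enzyme of glutathione breakdown, fell from 29.5 ± 0.614 to 14.5 ± 0.923 CPM, and Mgst1, a microsomal glutathione transferase gene, from 85.9 ± 1.19 to 52.6 ± 1.76 CPM (SD, n = 5). Reads of Slc3a2 were divided between genes in 4 libraries.

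Txnrd1 encodes the cytosolic thioredoxin reductase, a selenoprotein that keeps thioredoxin reduced. It was at 252, 237, 266, 264 and 239 CPM in control libraries and at 385, 383, 388, 389 and 401 CPM in siRNA libraries. The lowest siRNA library lay far above the highest control, and the siRNA libraries were close to each other. The log2 fold change was 0.63 (SE 0.028, edgeR adjusted p = 2.88e-22), and 94.8% of all genes tested had a log2 fold change no higher. Gsr reads per Txnrd1 read fell from 0.454 to 0.356 with no overlap (exact permutation p = 0.00794, 0.00952 adjusted). Txnrd1 (Entrez gene 50493) lies on chromosome 10, 82833951 to 82897724.

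Srxn1 encodes sulfiredoxin, which repairs peroxiredoxins whose active cysteine has been overoxidized. In the order of replicates, controls stood at 68.1, 68.7, 78.1, 75.5 and 63.8 CPM and siRNA libraries at 132, 134, 136, 133 and 142 CPM. No siRNA library was near the controls, and controls 3 and 4 were the highest of their group. The log2 fold change was 0.93 (SE 0.041, edgeR adjusted p = 1.85e-15) and 1.02 without control replicates 3 and 4. Srxn1 (Entrez gene 76650, chromosome 2, 152105524 to 152111376) ranked 270 among the rises of all genes tested. Tested against a fold of 1.5 with edgeR's glmTreat, Srxn1 passed (adjusted p = 4.75e-08) and Txnrd1 did not (adjusted p = 0.159), nor did any other member, whereas 8.56% of all genes passed that test and 3.68% passed upward.

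Prdx1, the peroxiredoxin gene that supplies a main substrate of sulfiredoxin, ran from 535 to 576 CPM in control and from 617 to 623 CPM in siRNA libraries. The siRNA libraries were nearly level, with a coefficient of variation of 0.424% against 3.27% in control. At 11259 to 11354 reads per siRNA library, counting noise alone would on average give a larger spread than 0.424%. The difference in spread between the groups was not tested. Its log2 fold change was 0.16 (SE 0.024, edgeR adjusted p = 1.24e-07). Srxn1 reads per Prdx1 read rose from 0.127 to 0.218, a log2 difference of 0.78, with no overlap (exact permutation p = 0.00794, 0.00952 adjusted). Prdx1 (Entrez gene 18477) lies on chromosome 4, 116685599 to 116700000.

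Of 15 other genes of the thioredoxin and peroxiredoxin system, 9 rose, 4 fell and 2 did not pass (median log2 fold change 0.12), 86.7% called in all against 71.3% of all genes tested. Prdx6, a peroxiredoxin gene whose product uses glutathione, rose from 94.5 ± 5.72 to 153 ± 5.49 CPM, and Prdx4, the peroxiredoxin gene of the endoplasmic reticulum, from 117 ± 1.15 to 156 ± 8.68 CPM. Sesn1, a sestrin gene, fell from 85.5 ± 3.17 to 39.4 ± 2.91 CPM (SD, n = 5).

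Nqo1, which encodes a quinone reductase that NRF2 and the aryl hydrocarbon receptor both induce, did not pass. Its values were 272, 278, 315, 313 and 265 CPM in control and 284, 278, 290.2, 272 and 286 CPM in siRNA libraries. The siRNA values lay inside the range of the controls, in which replicates 3 and 4 were well above the others. The log2 fold change was -0.03 (SE 0.051, edgeR adjusted p = 0.575) and turned to 0.06 without control replicates 3 and 4 (adjusted p = 0.0806). Without control replicate 3 alone it was 0.0021 (adjusted p = 0.965). Replicates 3 and 4 were the highest controls of Nqo1, so an upward shift follows from leaving them out. Nqo1 (Entrez gene 18104) lies on chromosome 8, 107388225 to 107403205.

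Hmox1, which encodes the inducible haem oxygenase, depended on the same controls. It stood at 180.4, 191, 207, 205 and 178 CPM in control and at 196, 202, 210.0, 199 and 209 CPM in siRNA libraries. Replicates 3 and 4 of the controls reached the level of the siRNA libraries and the other 3 were below them. The log2 fold change was 0.08 (SE 0.039, edgeR adjusted p = 0.0818), and Hmox1 passed without control replicate 3 (0.11, adjusted p = 0.00519), without control replicate 4 (0.11, adjusted p = 0.0115) and without both (0.15, adjusted p = 4.03e-05). Nqo1 reads per Hmox1 read, which varied less among the controls than either gene, fell from 1.499 to 1.388 with no overlap (exact permutation p = 0.00794, 0.00952 adjusted). Hmox1 (Entrez gene 15368) lies on chromosome 8, 75093618 to 75100593.

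**Figure D3:**
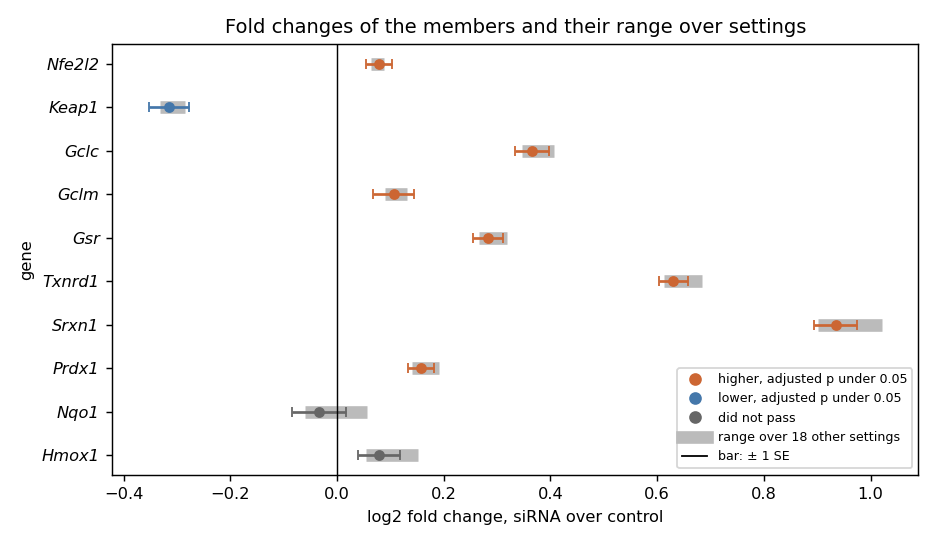
Log2 fold change of siRNA over control for the 10 genes (points, orange higher, blue lower, grey not passed) with bars of 1 SE, over grey bands from the lowest to the highest value under 18 other settings of the analysis. The bands of 9 genes stay on their side of 0, and that of Nqo1, from -0.06 to 0.06, crosses it.

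Per kilobase of exon, the scale on which levels of different genes can be set side by side, Nqo1 (186 ± 15.2 CPM per kilobase) and Prdx1 (183 ± 5.98) were highest in control cells, with overlapping ranges. Hmox1 (109.9 ± 7.71), Nfe2l2 (57.1 ± 0.734), Gsr (41.4 ± 1.46) and Txnrd1 (35.5 ± 1.89) followed in separate ranges. Srxn1 (25.1 ± 2.08) and Gclc (23.6 ± 0.951) overlapped, and Keap1 (12.6 ± 0.679) and Gclm (7.37 ± 0.36 CPM per kilobase, SD, n = 5) were lowest. In siRNA cells Prdx1 (204 CPM per kilobase) stood above Nqo1 (182) with no overlap, Txnrd1 (54.9) above Gsr (50.4), and Srxn1 (48.0), which had been level with Gclc, above it (30.4) with a range that overlapped that of Gsr. Part of this order depends on the length used. With the longest annotated transcript in place of the union of exons, the control levels of Txnrd1 and Nfe2l2 were 1.96-fold and 1.53-fold as high (69.4 and 87.6 CPM per kilobase). By that length the control order turned for Txnrd1, then above Gsr (42.7), for Prdx1 (242.5), then above Nqo1 (186) with no overlap, and for Gclc (26.0) and Srxn1 (25.2), whose ranges still overlapped. In siRNA cells Txnrd1 (107.5 CPM per kilobase) then also stood above Nfe2l2 (92.5).

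**Figure D4:**
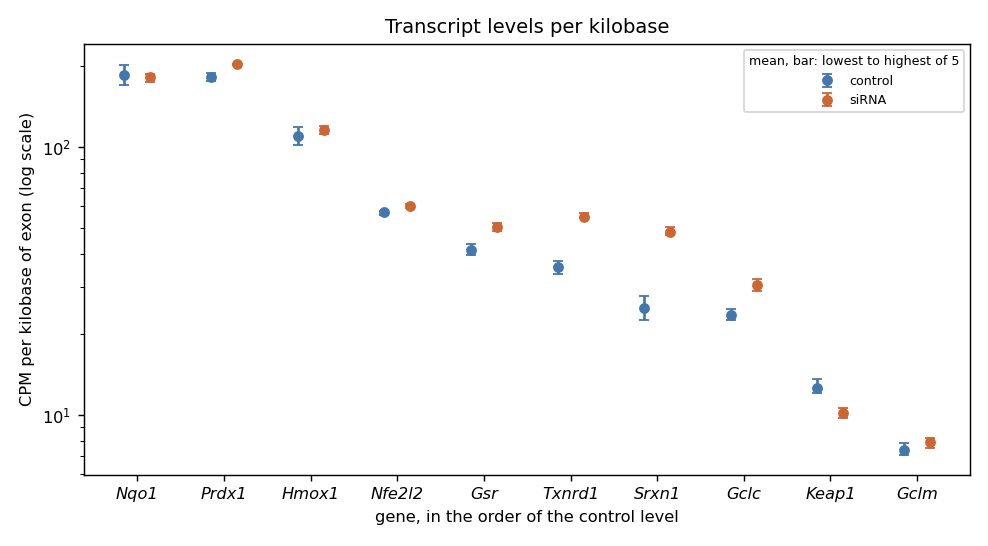
Level of each gene in CPM per kilobase of exon, on a log axis, as the mean of 5 libraries with bars from the lowest to the highest library, in control (blue) and siRNA (orange) cells. Levels run from 7.37 for Gclm to 186 for Nqo1 in control cells, and Srxn1 moves from 25.1 to 48.0.

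Likeness was the root mean square difference of centred log2 CPM over the 10 libraries. It was ranked over 10314 genes with a mean of 5 CPM or more, members left out. Unnamed loci and pseudogenes are among the 10314 but were passed over in naming. The named genes most like Nfe2l2 were Dlg1 (0.013), Tpr (0.015) and Tmed10 (0.017). Those most like Srxn1 were Pogk (0.047), Arf1 (0.048) and Sox4 (0.053), whose log2 fold changes were 0.93, 0.92 and 0.95.

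Enzymes around these genes moved in both directions. Over all 7 lists of related genes, 95 of 104 genes were tested, of which 43 rose, 33 fell and 19 did not pass, so that 80.0% were called against 71.3% of all genes. Their median log2 fold change was 0.05. Of 7 tested genes of superoxide and hydrogen peroxide enzymes, 1 rose, 3 fell and 3 did not pass (median -0.04). In all, 57.1% of them were called, against 71.3% of all genes tested (36.1% higher and 35.2% lower). The catalase gene Cat fell from 106 ± 1.51 to 89.7 ± 3.52 CPM, and the oxidase subunit gene Ncf1 fell from 6.89 ± 1.42 to 4.23 ± 0.667 CPM with overlapping groups (SD, n = 5).

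Of 10 genes of NADPH supply, 4 rose, 3 fell and 3 did not pass (median -0.03). That was 70.0% called, against 71.3% of all genes tested (36.1% higher and 35.2% lower). Taldo1, which encodes transaldolase of the pentose phosphate pathway, rose from 32.6 ± 1.62 to 99.4 ± 2.07 CPM (log2 fold change 1.61). The mitochondrial folate enzyme gene Mthfd2 rose from 20.8 ± 1.99 to 64.8 ± 4.15 CPM, and the malic enzyme gene Me1 fell from 135 ± 2.85 to 97.8 ± 5.22 CPM (SD, n = 5).

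Of 10 genes of haem and iron, 4 rose, 5 fell and 1 did not pass (median -0.03). That was 90.0% called, against 71.3% of all genes tested (36.1% higher and 35.2% lower). Slc40a1, which encodes the iron exporter ferroportin, fell from 62.2 ± 2.83 to 19.6 ± 1.64 CPM. The transferrin receptor gene Tfrc had a log2 fold change of 1.00 and the haem transporter gene Slc48a1 rose from 69.0 ± 3.62 to 82.7 ± 1.79 CPM (SD, n = 5).

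Of 14 genes of quinone, carbonyl and xenobiotic enzymes, 6 rose, 5 fell and 3 did not pass (median 0.08). That was 78.6% called, against 71.3% of all genes tested (36.1% higher and 35.2% lower). Ephx1, which encodes the microsomal epoxide hydrolase, fell from 16.6 ± 1.41 to 4.75 ± 0.397 CPM (log2 fold change -1.80). The aldehyde dehydrogenase gene Aldh2 fell from 84.1 ± 1.89 to 51.7 ± 1.16 CPM and the aldehyde oxidase gene Aox1 from 30.7 ± 2.00 to 14.4 ± 0.733 CPM (SD, n = 5).

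**Figure D5:**
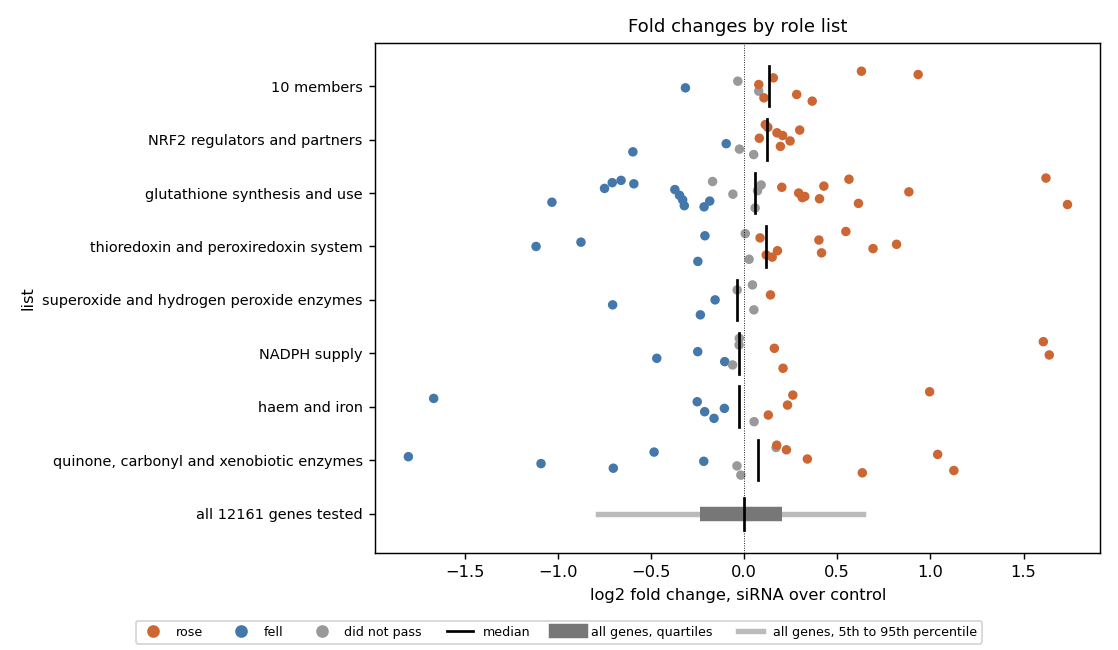
Log2 fold change of each tested gene in the 10 members and 7 lists of related genes (orange rose, blue fell, grey did not pass, vertical offset only to separate points), with the median of each list as a black line and the quartiles and the 5th to 95th percentile of all 12161 genes below. The medians lie between -0.04 and 0.13, and single genes reach from -1.80 for Ephx1 to 1.74 for Chac1.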

How the data were processed

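For each gene and library the deposited table gives an estimated count, made by the authors without normalization. The submitters' processing notes list HISAT2 2.2.1, Bowtie2 2.4.5, RSEM 1.3.1 and GRCm38.p6. What each tool did, the annotation, whether strand was used and any filter on genes: not given in the sources used here. Counts of the 10 members were whole in all libraries.

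Counts were rounded and tested with edgeR 4.0.16 (R 4.3.3). TMM factors were used, 4090 genes fell under filterByExpr (minimum count 10), and a robust quasi-likelihood model had only group as a term. P-values were adjusted by Benjamini-Hochberg over 12161 genes, with a threshold of 0.05. SE was taken from the F statistic. CPM use TMM-scaled library sizes. Count ratios were compared by exact permutation (scipy 1.17.1). A ratio restates the difference between 2 fold changes and is not separate evidence, and ratios of other gene pairs were not examined. Exon lengths came from GENCODE M21 and promoters from RefSeq. No chi-square between libraries of a group was as low as sampling noise (lowest 1.498 per degree of freedom). All libraries were counted as replicates. The check cannot tell separate cultures from repeated library preparations of 1 culture, since both can exceed sampling noise. In simulated siRNA and control libraries with 12114 genes in the fit, 50 genes were changed at each fold. Recovered were 42% of genes changed by 1.1-fold, 82% by 1.25-fold, 96% by 1.5-fold and 100% by 2-fold. Of 172 calls, 12 were false. Far fewer genes were changed there than the 71.3% called in the data. The adjustment was therefore stricter, and these shares do not carry over to the data.

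The members and lists were chosen with earlier results of these data known. Besides the members, Bach1 and Kdr, the text names 3 genes per list, those lowest in adjusted p, except for a gene that is not reported here. Markers, neighbours by likeness and genes picked with their values in view are named as such. Alternatives were RLE factors, upper-quartile factors, DESeq2 1.42.0, limma-voom (limma 3.58.1), other filters, a replicate block, glmTreat, each library left out, other lengths, and, added after seeing the data, leaving out control replicates 3 and 4.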

Additional observations from a re-analysis of the deposited data

Results flagged for a closer look

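The ratio of Nqo1 to Hmox1 reads in siRNA replicate 1, 1.446, lay apart from the other 4 siRNA libraries, which ran from 1.367 to 1.382. It was still below every control library. Of 32 groups of 5 values examined in this way, 1 stood apart, and chance gives about 1 in 20.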

How the results depend on the processing

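Under 18 settings other than the test against a fold of 1.5, 8 of the 10 members kept their direction and their side of the threshold. The exceptions were Nqo1 and Hmox1. Nqo1 turned from -0.03 to 0.0021 without control replicate 3 and to 0.0557 without control replicates 3 and 4, and was from -0.0608 to 0.0021 with 1 library left out. Hmox1 passed with limma-voom (0.0813, adjusted p = 0.0431), with all genes kept regardless of count (0.0855, adjusted p = 0.02) and without control replicates 3 and 4 (0.152, adjusted p = 4.03e-05), and ran from 0.0543 to 0.109 with 1 library left out. The cause was not tested. Against a fold of 1.5, 1041 genes passed, 447 higher and 594 lower. That was 8.56% of all 12161 genes tested, and 3.68% passed higher. Among the genes that passed were 1 member higher and 0 lower (also 0 lower at an unadjusted glmTreat p under 0.05, and 1 by the test for any change). Of the 95 tested genes of the related lists, 10 passed this test higher and 7 lower. Of the other members, Gclc (0.37), Gclm (0.11), Gsr (0.28), Keap1 (-0.31), Nfe2l2 (0.0792), Prdx1 (0.16) and Txnrd1 (0.63) did not pass it. Same-numbered libraries did not deviate together (correlations from -0.195 to -0.0201), and with the replicate number as a block Hmox1 passed (0.0808, adjusted p = 0.0234) while the calls of the other 9 members did not change. By the longest transcript, control levels were 26.0 CPM per kilobase for Gclc, 8.29 for Gclm, 123 for Hmox1, 16.4 for Keap1, 87.6 for Nfe2l2, 242.5 for Prdx1 and 69.4 for Txnrd1. No scaling moved the median of all genes by over 0.1 on the log2 scale. Of 418 values for the 22 named genes of the lists, 407 kept their call, 10 lost it, all against a fold of 1.5, and 1, Bach1, gained it.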

Other observations

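Of list genes chosen after their values were seen, the cystine transporter gene Slc7a11 rose from 159 ± 16.2 to 489 ± 18.4 CPM. Chac1, which encodes a glutathione-degrading enzyme, rose from 1.57 ± 0.371 to 5.25 ± 0.863 CPM. The aldo-keto reductase gene Akr1b8 rose from 62.7 ± 4.01 to 137 ± 6.65 CPM and the esterase gene Esd from 194 ± 13.4 to 399.5 ± 13.6 CPM (SD, n = 5). Txn1, the thioredoxin that Txnrd1 reduces, rose by 0.40 on the log2 scale, and the selenoprotein genes Gpx1 and Gpx3 moved in opposite directions, with log2 fold changes of 0.33 and -0.35. The superoxide dismutase genes Sod1 (-0.04, edgeR adjusted p = 0.283) and Sod2 (0.05, adjusted p = 0.299) did not pass. Others, chosen in the same way, fell: Gstm1 (log2 fold change -0.37), Gstm2 (-0.75), Mgst3 (-0.66) and Nqo2 (-0.48). Over all lists of related genes, 43 of the 95 tested genes rose and 33 fell, against 36.1% and 35.2% of all genes tested.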
